A study of Mus musculus with 2 samples.

Results

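The genes described here are 10 genes of vascular endothelium and of the blood–brain barrier, *Pecam1*, *Cdh5*, *Kdr*, *Tek*, *Cldn5*, *Slc2a1*, *Mfsd2a*, *Abcb1a*, *Slco1c1* and *Plvap*, out of 23951 gene symbols found in both libraries. They were listed by name and not by their values, but with earlier results of these data known. RNA-seq had been carried out on optic nerves at P12 from control mice, with 1 floxed *Tcf7l2* allele (Tcf7l2 c/+), and from mutants with both alleles floxed (Tcf7l2 c/c), here called *Tcf7l2*ΔHMG, with 1 library per genotype. Both genotypes carried OLig1-cre, so Cre was active in the control as well, on its 1 floxed allele. In this line Cre works in the oligodendrocyte (OL) lineage, to which endothelial cells do not belong, and it cuts out the exon for the DNA-binding HMG box of *Tcf7l2*. The number of animals behind each library is not given in the sources used here.

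Endothelial cells line the vessels of the optic nerve, a white matter tract of the central nervous system. In most of the central nervous system they form the blood–brain barrier, in which tight junctions seal the space between cells, transcytosis is kept low, and carriers and efflux pumps decide which solutes cross. Wnt ligands made by glia and neurons act through Fzd4, Lrp5/6 and β-catenin in these endothelial cells to switch on barrier genes, and vessels without the signal keep or regain *Plvap*, a component of fenestrae and caveolae. The comparison of control and *Tcf7l2*ΔHMG nerves therefore shows the barrier genes in a tissue where the OL lineage lacks a DNA-binding Wnt effector.

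Expression was given as FPKM, a fragment count scaled to transcript length and library size. Each value had a Cufflinks confidence interval, which holds counting error inside the library but no spread among animals. The control library held 27624000 mapped fragments and the mutant library 39938000, as read from the interval bounds of short rows, so 3 fragments on 1 kb corresponded to 0.11 and 0.075 FPKM, respectively. Log2 ratios are of mutant over control FPKM after 0.1 was added to each, so folds of weakly expressed genes come out too small. The background is 14199 genes with at least 1 FPKM in at least 1 library, a filter that all 10 genes passed. *Plvap* passed it only through the mutant library, where it was higher. With 1 library per genotype no test between genotypes was possible, and a gene is said to rise or fall only where its fold change was above 1.5, the cutoff used in the study. *Tcf7l2* itself was at 17.8 and 14.6 FPKM in control and mutant (log2 ratio −0.28), which is no check of the labels, since the mutant transcript loses a single exon and keeps the rest. All 4 pan-endothelial genes, which define the cell type, were measured in both libraries.

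Of the 10 genes, *Mfsd2a* and *Slco1c1*, both carriers of the barrier, fell in the *Tcf7l2*ΔHMG library, and *Cdh5* and *Plvap* rose. *Cdh5* only just passed the cutoff, and the intervals of *Plvap* overlapped. The other 6 stayed within a fold change of 1.5. Thus 20.0% of the genes rose, beside 15.4% of all genes compared, and 20.0% fell, beside 8.52% of all genes compared; with 10 genes each of these shares is 2 genes. The median log2 ratio of the 10 genes was −0.30, and 7 of them were below 0, while the median over all genes compared was 0.047 and 90% of all genes lay between −0.83 and 1.18. The nearest to 0 of these 7 was *Slc2a1* at −0.02, and 43.8% of all genes compared had a lower log2 ratio than it. For 8 of the 10 genes (80.0%) the control and mutant intervals were apart, but so they were for 52.4% of all genes compared. FPKM depends on how each library is scaled. When all rows of each library, unnamed ones included, were rescaled to the same sum, the median of all genes moved by −0.65, and *Cdh5* (−0.08) and *Abcb1a* (−0.16) lay below 0. Directions here and in the gene lists hold for FPKM as deposited, and ratios between 0 and about that shift would change sign under this rescaling. With named rows alone rescaled, the median of all genes moved by −0.07, and *Cdh5* (0.52) and *Abcb1a* (0.43) stayed above 0. Which scaling is right was not tested. In tissue as a whole, fewer endothelial cells and less RNA per cell cannot be told apart.

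**Figure D1:**
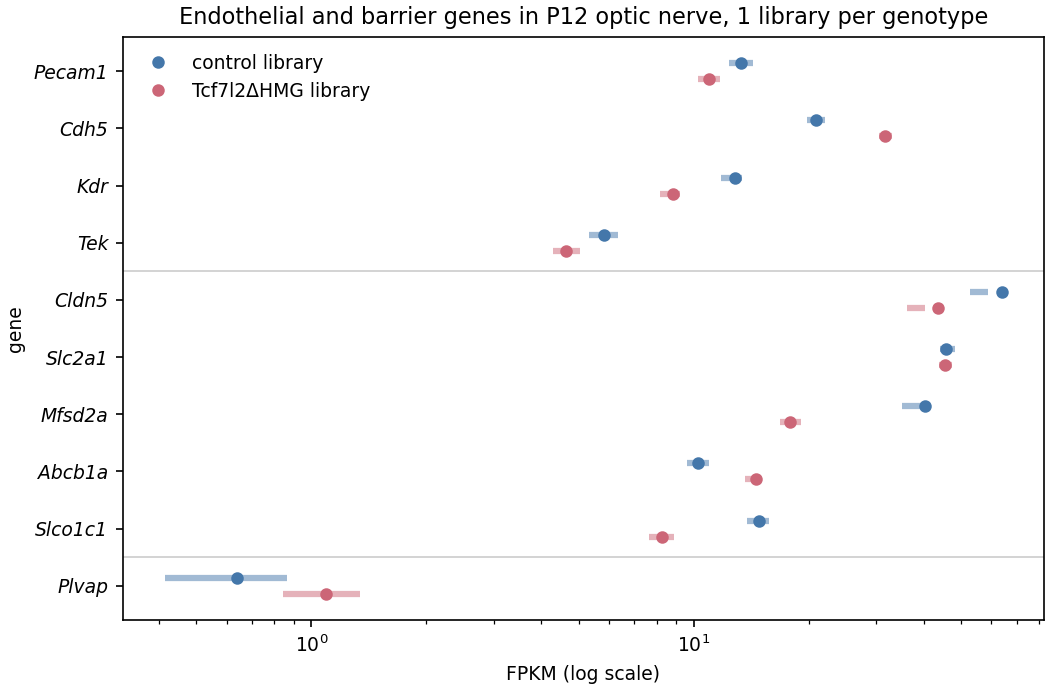
FPKM on a log scale of the 10 genes in the control (blue) and the *Tcf7l2*ΔHMG library (red), with points for the FPKM and bars for its Cufflinks interval, and grey lines between pan-endothelial genes, barrier genes and *Plvap*. *Mfsd2a* moved from 40.3 to 17.9 FPKM, *Plvap* lay below all other genes in both libraries, and the points of *Cldn5* lie outside their own bars.

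Promoter windows of the 3 barrier carriers and pumps with log2 ratios farthest from 0 are shown first. Of these, *Mfsd2a* and *Slco1c1* fell and *Abcb1a* was higher. Tcf7l2, whose DNA-binding exon is cut out in the OL lineage, belongs to a family with a known core motif. Endothelial cells lie outside that lineage, and a link between the motif and these ratios was not tested. Windows from 250 bases before to 50 after the start of the gene were taken from RefSeq (GRCm38.p6), which held 7 of the 10 genes, and are printed 5′ to 3′ on the strand of the gene. Capitals mark the TCF/LEF core TCAAAG and the core ACGTG of hypoxia-inducible factors and other basic helix–loop–helix proteins, each searched on both strands (CTTTGA and CACGT on the other strand). The *Mfsd2a* window lies on the minus strand at chr4:122961139-122961438, that of *Abcb1a* on the plus strand at chr5:8566841-8567140, and that of *Slco1c1* on the plus strand at chr6:141524104-141524403.
Mfsd2a: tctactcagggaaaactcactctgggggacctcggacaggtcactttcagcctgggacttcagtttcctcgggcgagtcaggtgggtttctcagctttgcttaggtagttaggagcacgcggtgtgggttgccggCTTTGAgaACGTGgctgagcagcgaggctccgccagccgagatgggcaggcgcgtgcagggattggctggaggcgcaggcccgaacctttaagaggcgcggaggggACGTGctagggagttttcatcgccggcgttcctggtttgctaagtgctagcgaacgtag
Abcb1a: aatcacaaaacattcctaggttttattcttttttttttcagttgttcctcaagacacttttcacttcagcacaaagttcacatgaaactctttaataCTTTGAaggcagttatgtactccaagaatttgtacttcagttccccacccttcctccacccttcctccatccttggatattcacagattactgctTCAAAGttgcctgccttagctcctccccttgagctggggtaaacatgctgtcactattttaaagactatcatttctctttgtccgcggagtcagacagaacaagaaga
Slco1c1: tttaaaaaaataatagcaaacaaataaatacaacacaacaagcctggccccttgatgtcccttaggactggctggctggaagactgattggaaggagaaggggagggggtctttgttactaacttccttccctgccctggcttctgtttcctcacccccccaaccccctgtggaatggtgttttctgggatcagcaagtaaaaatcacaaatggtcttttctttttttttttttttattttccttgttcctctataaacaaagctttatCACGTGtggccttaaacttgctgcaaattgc

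Counting back from the start of the gene, *Mfsd2a* held 1 TCF/LEF core, at −115 to −110, and *Abcb1a* held 2, at −153 to −148 and at −58 to −53. The log2 ratios of these 2 genes lay on opposite sides of 0. The core was found in 2 of the 7 windows and in 16.0% of 32851 windows of the same length over all genes. The last 25 bases of the *Abcb1a* window were in no GENCODE M21 transcript of the gene, so its start may differ between annotations. The window starts at 8566841 in GRCm38.p6 and the measured gene at 8660092 in mm9, with no conversion between these builds. It may therefore not be the promoter of the RNA measured, which leaves its 2 cores and its part in the count of windows uncertain. ACGTG was found in *Slc2a1*, *Mfsd2a* and *Slco1c1*, 3 of 7 windows, beside 19.6% of all windows, and in *Slco1c1* it lay from 20 to 25 bases after the start in the palindrome CACGTG, where both strands overlap. The ETS core CAGGAAG, searched with CTTCCTG because ETS factors are known to drive endothelial genes, was in 0 of the 7 windows and in 13.3% of all windows. These matches describe letters within 300 bases and not binding.

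*Mfsd2a* encodes a carrier of lipids that contain docosahexaenoic acid, and in brain endothelium it keeps caveolar transcytosis low. Its FPKM was 40.3 (Cufflinks interval 35.2 to 39.3) in the control and 17.9 (16.8 to 19.1) in the *Tcf7l2*ΔHMG library. This was a fold change of 2.24 (log2 ratio −1.16), the largest of the 10 genes, and 2.8% of all genes compared had a lower log2 ratio. Within the decile of genes with a like mean FPKM (1420 genes), 1.8% had a lower one. The control FPKM lay above its own interval. The gene is placed on chromosome 4 from 122624094 to 122638431 in mm9, the build named in the submitters' processing notes, in which all positions from the files are given.

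*Slco1c1*, on chromosome 6 from 141472907 to 141518698, encodes a carrier of thyroid hormone that is found in barrier endothelium and in astrocytes. It fell from 14.8 FPKM (13.8 to 15.8) to 8.27 FPKM (7.64 to 8.90), a log2 ratio of −0.83, and 5.0% of all genes had a lower one. In the control library only, a further unnamed row of 207 bases with 19.5 FPKM lay inside the gene, 21172 bases from its first position. Its fragments are not part of the value for *Slco1c1*, and its FPKM was far above its own interval of 1.92 to 5.95.

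*Cldn5*, on chromosome 16 from 18776940 to 18778355, encodes the main claudin of the tight junctions of brain endothelium, and in the control it had the highest FPKM of the 10 genes. It was measured at 64.1 FPKM in the control library (interval 52.9 to 59.0) and 43.7 FPKM in the mutant library (36.1 to 40.3). The intervals did not overlap, but the log2 ratio of −0.55 stayed just inside the cutoff of 0.58 on this scale. In both libraries the FPKM lay above its own interval. 

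*Slc2a1*, on chromosome 4 from 118781350 to 118809934, encodes Glut1, the glucose carrier of barrier endothelium, which astrocytes also make. It was at 45.9 FPKM in the control library (interval 44.2 to 48.2) and 45.4 FPKM in the mutant library (43.8 to 47.5), with overlapping intervals. The log2 ratio was −0.02, and the interval bounds allowed values from −0.14 to 0.10. *Slc2a1* was thus the barrier gene with the smallest difference.

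*Abcb1a*, on chromosome 5 from 8660092 to 8748570, encodes P-glycoprotein, the efflux pump on the blood side of the endothelium. Unlike the other 4 barrier genes it was higher in the mutant, with 10.3 FPKM (9.61 to 11.0) against 14.6 FPKM (13.6 to 15.0) (log2 ratio 0.50). The fold change of 1.42 did not pass the cutoff. Its near copy *Abcb1b* was at 3.01 and 4.11 FPKM (log2 ratio 0.44), and reads shared between both genes make the split between them uncertain.

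Among the pan-endothelial genes, *Cdh5* stood apart. *Cdh5*, on chromosome 8 from 106625525 to 106668402, encodes VE-cadherin, the adherens junction protein that defines endothelium. It rose from 20.9 FPKM (19.8 to 22.1) to 31.6 FPKM (30.6 to 33.0), a fold change of 1.51 that only just passed the cutoff (log2 ratio 0.59). With a pseudocount of 1, no gene of the 10 passed as higher.

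*Pecam1*, the platelet and endothelial adhesion molecule CD31, on chromosome 11 from 106515532 to 106576595, was lower in the mutant, at 13.3 FPKM in the control library (interval 12.4 to 14.3) and 11.0 FPKM in the mutant library (10.3 to 11.7) (log2 ratio −0.28). *Kdr*, on chromosome 5 from 76329299 to 76374453, encodes the main signalling receptor for Vegf, and was at 12.8 FPKM (11.8 to 13.4) and 8.81 FPKM (8.15 to 9.22), a log2 ratio of −0.53. *Tek*, on chromosome 4 from 94405980 to 94541667, encodes the angiopoietin receptor Tie2, and was at 5.83 FPKM (5.33 to 6.33) and 4.65 FPKM (4.28 to 5.03), a log2 ratio of −0.32. All 3 were lower in the mutant with intervals that did not overlap, and all 3 stayed within the cutoff. VE-cadherin and the other pan-endothelial RNAs therefore lay on opposite sides of 0.

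*Plvap*, on chromosome 8 from 74021652 to 74035668, encodes the diaphragm protein of fenestrae and caveolae, which mature barrier vessels lack. It was the lowest of the 10 genes, at 0.639 FPKM in the control library (interval 0.413 to 0.862) and 1.09 FPKM in the mutant library (0.843 to 1.34). The intervals overlapped, and their bounds allowed log2 ratios from −0.03 to 1.70 around the value of 0.69. Although the ratio was past the cutoff, its half-width from the 2 intervals was 0.61, so the size of the difference in *Plvap* was poorly known. Relative to *Pecam1* its FPKM was 0.0479 in the control and 0.0996 in the mutant, but relative to *Cdh5* it was 0.0305 and 0.0346.

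**Figure D2:**
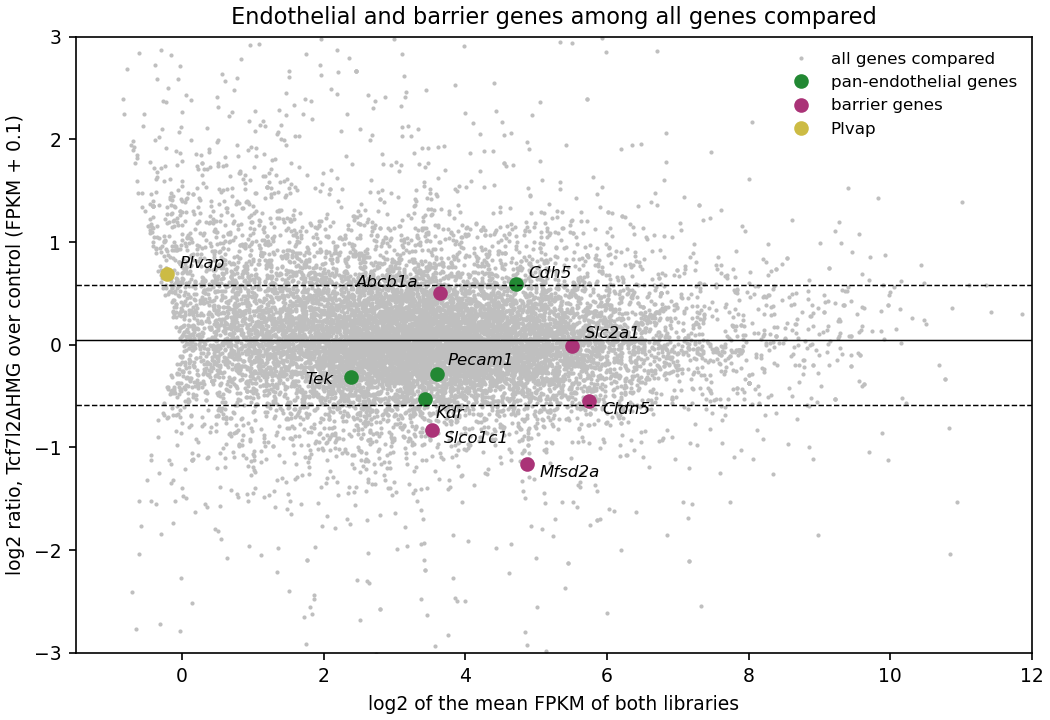
Log2 ratio of *Tcf7l2*ΔHMG over control against the log2 of the mean FPKM, for all 14199 genes compared (grey, with 392 genes outside the axes), pan-endothelial genes (green), barrier genes (purple) and *Plvap* (yellow). The solid line is the median of all genes (0.047) and the dashed lines a fold change of 1.5. *Mfsd2a* (−1.16) and *Slco1c1* (−0.83) lie below the lower dashed line, and *Cdh5* (0.59) and *Plvap* (0.69) on or above the upper one.

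In FPKM, which is per length and so can be set side by side between genes, the control order was *Cldn5*, *Slc2a1*, *Mfsd2a*, *Cdh5*, *Slco1c1*, *Pecam1*, *Kdr*, *Abcb1a*, *Tek* and *Plvap*. Neighbours had overlapping intervals only for *Slco1c1* and *Pecam1* and for *Pecam1* and *Kdr*. In the mutant the order was *Slc2a1*, *Cldn5*, *Cdh5*, *Mfsd2a*, *Abcb1a*, *Pecam1*, *Kdr*, *Slco1c1*, *Tek* and *Plvap*, with overlapping intervals only for *Kdr* and *Slco1c1*. The FPKM of *Cldn5* in the mutant lay above its interval and the FPKM of *Slc2a1* within it. *Slco1c1* went from the fifth to the eighth place and *Abcb1a* from the eighth to the fifth.

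Barrier genes were next set against the pan-endothelial genes of the same library. The summed FPKM of the 5 barrier genes was 175.4 in the control and 130.0 in the mutant, while that of the 4 pan-endothelial genes was 52.9 and 56.0, with *Cdh5* as its largest part. The median log2 ratio was −0.55 over the 5 barrier genes and −0.30 over the 4 pan-endothelial genes, a difference of −0.25. The genes of each group spread more widely than that, from −1.16 to 0.50 among barrier genes and from −0.53 to 0.59 among pan-endothelial genes, so the groups overlapped, and whether they differ could not be tested with 1 library per genotype.

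Ratios between 2 genes of 1 library do not depend on how the library is scaled, and for some barrier genes they depended on the pan-endothelial gene chosen. *Mfsd2a* was 3.02 times the FPKM of *Pecam1* in the control and 1.64 times in the mutant, and 1.93 and 0.569 times that of *Cdh5*. It was also lower relative to *Kdr* (3.16 and 2.04) and to *Tek* (6.92 and 3.86). *Slco1c1* was likewise lower relative to each of the 4. In contrast, *Abcb1a* was 0.77 times the FPKM of *Pecam1* in the control and 1.33 times in the mutant, but 0.491 and 0.462 times that of *Cdh5*. *Slc2a1* behaved in the same way, with 3.44 and 4.14 times the FPKM of *Pecam1* and 2.19 and 1.44 times that of *Cdh5*.

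The tables hold rows of 2 kinds, rows of the reference and rows that Cufflinks assembled, and a gene could change kind between libraries. Over genes with a reference row in the control and an assembled row in the mutant (1871 genes), the median log2 ratio was 0.20, and over those with the opposite change (1463 genes) it was −0.09. *Mfsd2a* and *Plvap* belonged to the first group, and *Slco1c1* and *Abcb1a* to the second. After the median of its group was subtracted, *Mfsd2a* was at −1.36, *Slco1c1* at −0.74, *Abcb1a* at 0.59 and *Plvap* at 0.49, so *Abcb1a* then passed the cutoff and *Plvap* no longer did. The remaining 6 genes had rows of the same kind in both libraries. Among them *Cldn5* (−0.63) and *Kdr* (−0.61) then passed as lower, and *Cdh5* (0.57) fell short.

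**Figure D3:**
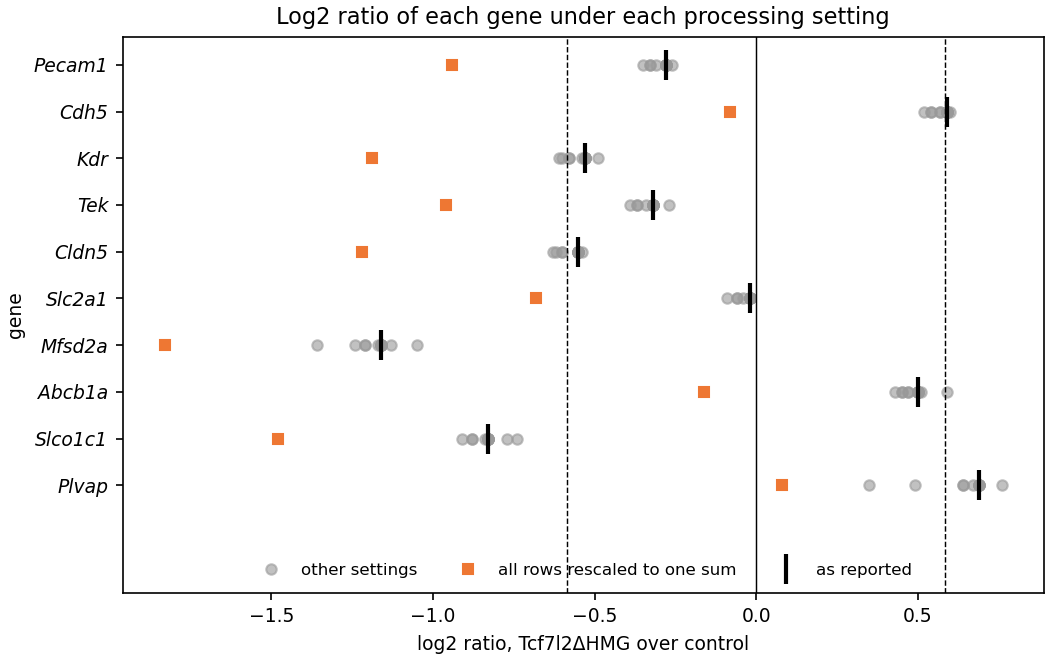
Log2 ratio of each of the 10 genes as reported (black bars), with all rows of each library rescaled to the same sum (orange squares) and under the other settings (grey points), with dashed lines at a fold change of 1.5. Apart from the rescaling of all rows, which put *Cdh5* at −0.08 and *Mfsd2a* at −1.83, *Mfsd2a* stayed between −1.36 and −1.05, *Plvap* between 0.35 and 0.76, and *Cdh5* between 0.52 and 0.60, on both sides of the upper dashed line.

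Other genes of the same kind were taken from lists. Of those named below as rising, *Nr2f2*, *Lrp5*, *Foxf2*, *Notum*, *Cav2*, *Vegfb*, *Pgf*, *Tagln*, *Dcn* and *Mgp* changed from reference to assembled rows. The median log2 ratio over all genes with this change was 0.20, and it was not subtracted from their ratios. Of 27 further endothelial genes, 26 could be compared, of which 2 rose and 6 fell, with a median log2 ratio of −0.21. Over all genes compared 15.4% rose and 8.52% fell, the shares to set beside the counts of this and each following list. With few genes per list, a count near these shares says nothing particular about a list. *Robo4*, an endothelial guidance receptor, fell from 4.73 to 2.28 FPKM (log2 ratio −1.02). *Ly6c1* and *Ly6a*, surface antigens of brain endothelium, fell to 21.6 and 18.6 FPKM (log2 ratios −0.72 and −0.94), but in the control both share 1 merged row of 35.7 FPKM, so their ratios are uncertain. *Ramp2*, the partner of the adrenomedullin receptor, rose from 58.5 to 150.4 FPKM (log2 ratio 1.36), although in the mutant its row was merged with that of a neighbour. Of the 8 endothelial transcription factors on that list, 7 were compared, of which *Nr2f2*, a factor of venous fate, rose from 10.5 to 16.6 FPKM (log2 ratio 0.65), 0 fell and the median log2 ratio was −0.22.

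Of 26 further barrier genes, 25 could be compared, and 22 of them stayed within a fold change of 1.5 (median log2 ratio 0.06). All 7 junction genes compared were within it. *Slc38a5*, an amino acid carrier, fell from 14.3 to 7.87 FPKM (log2 ratio −0.85), and *Tfrc*, the transferrin receptor, fell from 16.2 to 10.7 FPKM (log2 ratio −0.59). *Slc22a8*, an organic anion carrier of brain endothelium and the choroid plexus, rose from 37.4 to 66.0 FPKM (log2 ratio 0.82). The amino acid carrier *Slc7a1* was at 10.8 and 7.74 FPKM (log2 ratio −0.47). The barrier gene with the highest mean FPKM on the list, the monocarboxylate carrier *Slc16a1*, was at 85.0 and 67.6 FPKM (log2 ratio −0.33). All values of this list are of the tissue, and the part of the endothelium in them was not tested.

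The Wnt pathway that acts on barrier endothelium was followed with 19 genes, of which 18 could be compared; 5 rose, 0 fell, and the median log2 ratio was 0.34. The ligand *Wnt7b* was at 11.1 and 11.0 FPKM in control and mutant (log2 ratio −0.02), with overlapping intervals, and *Wnt7a* was at 0.378 and 0.438 FPKM, below the filter. *Lrp5*, a co-receptor, rose from 4.85 to 8.99 FPKM (log2 ratio 0.88), and *Adgra2*, which presents Wnt7 ligands to endothelium together with Reck, rose from 19.9 to 32.0 FPKM (log2 ratio 0.68). The feedback inhibitors *Nkd1* and *Notum* rose from 19.5 to 47.9 FPKM (log2 ratio 1.29) and from 2.05 to 4.33 FPKM (log2 ratio 1.04). The Wnt-responsive genes *Axin2* (9.42 and 12.5 FPKM, log2 ratio 0.40) and *Lef1* (2.71 and 2.84 FPKM, log2 ratio 0.07) stayed within the cutoff. *Foxf2*, a forkhead factor of brain pericytes and endothelium, rose from 6.53 to 14.5 FPKM (log2 ratio 1.14). *Apcdd1*, an endothelial Wnt target, was at 48.9 and 50.1 FPKM with overlapping intervals. Many of these genes are also made by glia or meningeal cells, so their values are of the tissue and not of the endothelium.

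Of 13 genes of caveolae, permeability and vessel activation, 11 could be compared, of which 3 rose and 1 fell (median log2 ratio 0.46). *Cav2*, a caveolin, rose from 10.6 to 50.6 FPKM (log2 ratio 2.24), with a reference row in the control and an assembled one in the mutant. *Cavin2*, a coat protein of caveolae, rose from 8.41 to 14.1 FPKM (log2 ratio 0.74), and *Esm1*, a tip cell gene, from 1.01 to 1.74 FPKM (log2 ratio 0.73). *Aplnr*, the apelin receptor of veins and sprouting vessels, fell from 18.0 to 9.92 FPKM (log2 ratio −0.85). *Cavin1*, the highest of the list, was at 65.3 and 92.7 FPKM (log2 ratio 0.51). The leukocyte adhesion gene *Selp* was listed at 0 in both libraries. Here too the values are of the tissue and not of the endothelium, and the cells behind them were not tested.

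Among 14 angiogenic ligands and co-receptors, 4 rose and 1 fell (median log2 ratio 0.15). *Pgf*, a ligand of Flt1, rose from 3.13 to 7.62 FPKM (log2 ratio 1.26) and *Vegfb* from 15.7 to 33.3 FPKM (log2 ratio 1.08). *Tgfb1* rose from 6.07 to 11.3 FPKM (log2 ratio 0.89) and *Adm*, which encodes adrenomedullin, from 4.37 to 7.50 FPKM (log2 ratio 0.77), while *Dll4*, the Notch ligand of tip cells and arteries, fell from 2.96 to 1.49 FPKM (log2 ratio −0.94). *S1pr1*, the highest, was at 24.2 and 36.2 FPKM, just inside the cutoff. Of 14 arterial and venous genes, 12 could be compared, of which 1 rose and 4 fell (median log2 ratio −0.15). The arterial genes *Gja4* (5.23 to 2.74 FPKM, log2 ratio −0.91) and *Sema3g* (1.62 to 0.719 FPKM, log2 ratio −1.07) fell, and so did *Slc38a5* and *Aplnr* among the venous ones, while *Nr2f2* rose. *Sema3g* passed the filter only through the control library, where it was higher. *Vcam1*, the highest of them, was at 28.7 and 27.8 FPKM with overlapping intervals.

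**Figure D4:**
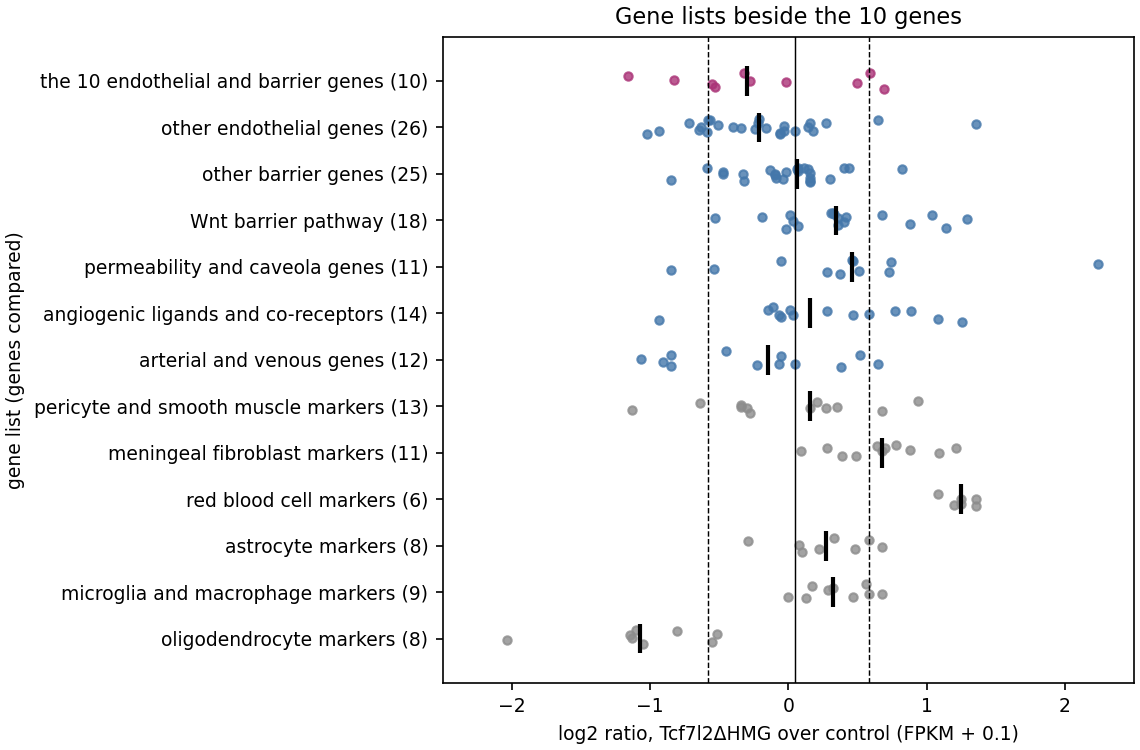
Log2 ratio of *Tcf7l2*ΔHMG over control for the genes of each list that could be compared, with their number in brackets, for the 10 endothelial and barrier genes (purple), other vascular lists (blue) and markers of other cell types (grey). Black bars are medians, the solid line is the median of all genes, the dashed lines are a fold change of 1.5, and 1 gene, *Tagln*, lies outside the axis. The medians ran from −1.07 for oligodendrocyte markers to 1.25 for red blood cell markers, with −0.30 for the 10 genes.

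Markers of other cells in or around the nerve also differed between the libraries, and their part in the values of the 10 genes was not tested. Of 14 pericyte and smooth muscle markers, 13 were compared, of which 3 rose and 2 fell, with a median log2 ratio of 0.16. Their summed level was 305.3 FPKM against 424.5 FPKM, of which *Vtn* made 159.9 and 256.4 FPKM. Single members ranged from 0 to 159.9 FPKM and from 0.407 to 256.4 FPKM. The pericyte gene *Higd1b* fell from 8.51 to 3.83 FPKM (log2 ratio −1.13) as did *Rgs5* from 63.0 to 40.5 FPKM (log2 ratio −0.64). *Anpep* rose from 11.9 to 22.9 FPKM (log2 ratio 0.94), *Vtn* rose with a log2 ratio of 0.68, and *Tagln*, counted among the 3, was listed at 0 in the control, on a reference row, and at 35.3 FPKM in the mutant, on an assembled row, and passed the filter only through the mutant. The other smooth muscle genes *Acta2* (log2 ratio 0.21) and *Myh11* (log2 ratio −0.34) stayed within the cutoff.

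Of 11 meningeal fibroblast markers, 7 rose and 0 fell, with a median log2 ratio of 0.68, and their summed level was 2181.6 FPKM against 3525.9 FPKM. *Igf2*, the highest, rose from 685.6 to 1257.8 FPKM (log2 ratio 0.88), *Mgp* from 236.4 to 548.1 FPKM (log2 ratio 1.21), *Dcn* from 137.4 to 235.4 FPKM (log2 ratio 0.78) and *Foxc1*, a meningeal transcription factor, from 8.91 to 19.0 FPKM (log2 ratio 1.09). All 6 red blood cell markers compared rose (median log2 ratio 1.25), with summed levels of 163.0 and 403.2 FPKM, although 4 of them share merged rows in pairs and *Alas2* (0.607 and 1.39 FPKM) passed the filter only through the mutant library. The summed levels of both lists were thus higher in the mutant library, and a link to the values of the 10 endothelial and barrier genes was not tested.

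Oligodendrocyte markers fell in 6 of 8 cases, from a sum of 15302.2 to 6887.9 FPKM (median log2 ratio −1.07). Of 8 astrocyte markers, 1 (*Gja1*) rose and 0 fell (median log2 ratio 0.27; sums of 5115.7 and 6048.2 FPKM), and of 9 microglia and macrophage markers, 1 (*Mrc1*) rose and 0 fell (median 0.32; sums of 249.9 and 337.3 FPKM). For astrocytes and microglia these counts lie near the shares over all genes, 15.4% rising and 8.52% falling. Platelet and leukocyte markers, which matter for *Pecam1*, summed to 7.3 and 5.9 FPKM in control and mutant over 6 genes, of which 2 could be compared. The highest of them were *Itga2b*, an integrin of platelets and their precursors, at 4.68 and 2.62 FPKM (log2 ratio −0.81), and *Ptprc*, the common leukocyte antigen, at 1.98 and 1.90 FPKM (log2 ratio −0.06).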

How the data were processed

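RNA-seq libraries of optic nerves at P12 were analysed for 1 control and 1 *Tcf7l2*ΔHMG sample, grouped by the genotype in the labels. Per the labels and the methods of the study, the authors aligned the reads by TopHat (default options), and Cufflinks then gave FPKM with its interval; the processing notes name mm9, and versions are not given in the sources used here. The deposited FPKM tables were used as they are. Starts in the files count from 0 and were raised by 1. Rows of 1 symbol were summed, merged names were split (618 and 644 merged rows, none with one of the 10 genes), and symbols with status OK in both libraries and at least 1 FPKM in at least 1 were compared.

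Depth was taken as the number of fragments that made the interval bounds of unnamed rows under 100 bases whole multiples of 1 fragment (194 and 349 rows, bounds under 30 fragments, within 0.00055 of a whole number). FPKM lay outside its own interval in 7.3% and 8.6% of named rows above 0.

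No test across genes was used. The genes and lists were chosen with earlier results of these data known. All 10 genes are named, and from each list the 4 with the largest absolute log2 ratio, the one with the highest mean and any at 0. *Wnt7a*, *Wnt7b*, *Axin2*, *Lef1*, *Adgra2* and *Abcb1b* were added after their values were seen. *Nr2f2*, *Adm*, *Rgs5*, *Alas2*, *Acta2* and *Myh11* were added likewise beside a count. Some markers of other cells that meet the rule appear only in the counts. Promoters came from RefSeq (GRCm38.p6); no position was converted between builds. Python 3.11.15, numpy 2.4.6, pandas 2.3.3 and matplotlib 3.10.9 were used.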

Additional observations from a re-analysis of the deposited data

Results flagged for a closer look

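Unnamed rows lie outside the gene values used here, and 2 of them beside endothelial and barrier genes had a higher FPKM in the mutant library than in the control. A row upstream of *Cldn5* was at 1.64 FPKM (interval 0.559 to 1.73) in the mutant and 1.56 FPKM (0.572 to 2.07) in the control, with overlapping intervals. A row downstream of *Slc2a1* was at 2.52 FPKM (1.20 to 2.71) in the mutant and 1.44 FPKM (0.793 to 1.89) in the control, also with overlapping intervals, and the rows differed in length (582 and 959 bases).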

How the results depend on the processing

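The 15 alternatives listed at the start and 2 chosen after seeing the data (the interval midpoint, and subtraction of the median by kind of row) were run. The number of the 10 genes that rose was 2 as reported. It was 0 with a pseudocount of 1, with all rows rescaled to a sum of 1000000 and with a fold above 2. It was 1 with at least 1 FPKM in both libraries, at least 5 FPKM in 1 library, subtraction of the all-gene median, 75th-percentile scaling, named rows rescaled to a sum of 1000000, non-overlapping intervals required, or the median by kind of row subtracted. Over all genes, 11.8% rose with a pseudocount of 1, 6.9% with a fold above 2, and 12.2% to 13.8% under the settings that left 1 gene. The number that fell was 2 as reported, 3 with the all-gene median subtracted or 75th-percentile scaling (*Cldn5* in addition), and 7 with all rows rescaled. It was 4 with named rows rescaled or with the median by kind of row subtracted, and 1 with a fold above 2. Over all genes, 9.78% fell with the all-gene median subtracted and 9.84% with 75th-percentile scaling. The share was 10.7% with named rows rescaled, 9.63% with the median by kind of row subtracted and 3.68% with a fold above 2. Rescaling all rows shifted the median of all genes by −0.65, the median of the 10 genes to −0.95 and *Cdh5* to −0.08, and put 52.1% of all genes below and 4.5% above the cutoff (as reported, 8.52% and 15.4%), so that 8.0% rather than 64.4% of calls were higher. The cause of the other moves was not tested. *Mfsd2a* fell under all 18 settings, *Slco1c1* under each but a fold above 2, *Cdh5* rose under 11 and *Plvap* under 11. The difference between barrier and pan-endothelial medians ran from −0.30 to −0.25, and that of *Plvap* to the pan-endothelial median from 0.62 to 1.07 (0.99 as reported), but most alternatives shift all genes alike or leave these rows untouched, so this says little about stability. A fold above 2 called 975 genes higher and 522 lower over all genes, beside 2185 and 1210. Without a filter 23853 genes were compared, beside 14199. *Plvap* had no value under the stricter filters. No paired analysis was possible because there was 1 library per genotype. Depth limits *Plvap* most, with interval half-widths of 35.2% and 22.8% of the midpoint.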
